A study of Saccharomyces cerevisiae with 14 samples.

Results

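The data described here are the 7 microarrays of the culture of *Saccharomyces cerevisiae* treated with 5-hydroxymethylfurfural (HMF), out of 14 in the series, read as a time course of that culture. The members were taken by their labels: 2 arrays at 10 min, 2 after 30 min, 2 after 60 min and 1 after 120 min after HMF was added. The arrays at 10 min were set against the 3 later arrays, those of 60 and 120 min, called late here, with 30 min as the step between. All samples came from strain NRRL Y-12632, grown in synthetic complete medium, and the treated culture held HMF at 30 mM. The other 7 arrays came from cultures of the same strain and medium at the same times without HMF. The labels call the replicates biological, and the single array at 120 min in each culture has no replicate. On every array the sample was labeled with Cy3 and hybridized against untreated RNA of 0 min labeled with Cy5. Each value is therefore a log2 ratio to 0 min, given here after subtracting the median of all genes on that array. A value of 0 is the level of the median gene, and 1 unit is a 2-fold change.

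HMF is an aldehyde formed when plant biomass is broken down by acid and heat, and it slows the growth of yeast until the cells have reduced it to an alcohol. Yeast cells under a sudden stress commonly turn down the genes that build ribosomes and those of cell division, and turn up genes for chaperones, trehalose and glycogen. This environmental stress response is known to be short-lived when cells adapt. Pumps of the pleiotropic drug resistance (PDR) family and reductases that use NADPH are known for a part in tolerance to toxic aldehydes and drugs.

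The level of all genes differed between arrays before centring. The median log2 ratio on the HMF arrays was between -0.32 and 0.56, and both ends of this range were arrays of 10 min. Across genes, which are not independent replicates, the Pearson's r between replicates with HMF was 0.645 after 10 min, 0.509 after 30 min and 0.588 after 60 min. All 6387 open reading frames had a value on every array. Differences between times were tested with limma in a model that gives every combination of treatment and time (8 groups) its own mean, and a gene was called where its p, adjusted by Benjamini-Hochberg, reached 0.05 or less.

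Between 10 min and late, genes for ribosome assembly and for the start of the cell cycle rose in the treated culture, and single genes such as *SSA4*, which encodes a chaperone, *CYB2* and *OPT2* fell. Of the 6387 genes 142 were called, or 2.22%. Of these 112 (1.75%) were higher late and 30 (0.47%) were lower late. On the scale as deposited 3 genes were called, 2 of them higher, a share of 66.7% against 78.9% after centring. The typical gene higher late had been low at 10 min: the median of the 112 genes was -1.63 after 10 min, -0.33 after 30 min and -0.19 late. The typical gene lower late had been high at 10 min: the median of the 30 genes was 1.32, 0.16 and -0.17. These medians describe genes chosen by the same comparison. Of the 112 genes, 90 were at least 2-fold below the median gene at 10 min, and 100 were within 2-fold of it late. Of the 30, 21 were at least 2-fold above the median gene at 10 min, and 24 were within 2-fold of it late.

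The number of called genes depended strongly on the arrays and the scaling used, and the cause was not tested. The adjusted p of all 142 genes lay between 0.024 and 0.05. No gene was called when the 7 HMF arrays were fitted alone (smallest adjusted p 0.12, 1039 genes at an unadjusted p of at most 0.05) or after quantile normalization (786 genes unadjusted). The count was 1 without replicate 1 and 0 without replicate 2 of HMF at 10 min, and 1 and 0 without replicate 1 and replicate 2 of HMF at 60 min. It was 79 without the 120 min arrays, 62 with either control replicate of 30 min left out and 0 with either control replicate of 60 min left out. It was higher, at 212, with either control replicate of 10 min left out, and at 524 with a replicate block. Control arrays enter this comparison only through the estimate of the spread. In all these fits the 142 genes had the same sign as in the full model. The arrays themselves separated many more genes: on 1355 genes (21.2%) all 3 late arrays were above both 10 min arrays, and on 1076 (16.8%) all 3 were below. Without adjustment, p was at most 0.05 in 804 higher genes (12.6%) and 505 lower ones (7.91%).

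**Figure D1:**
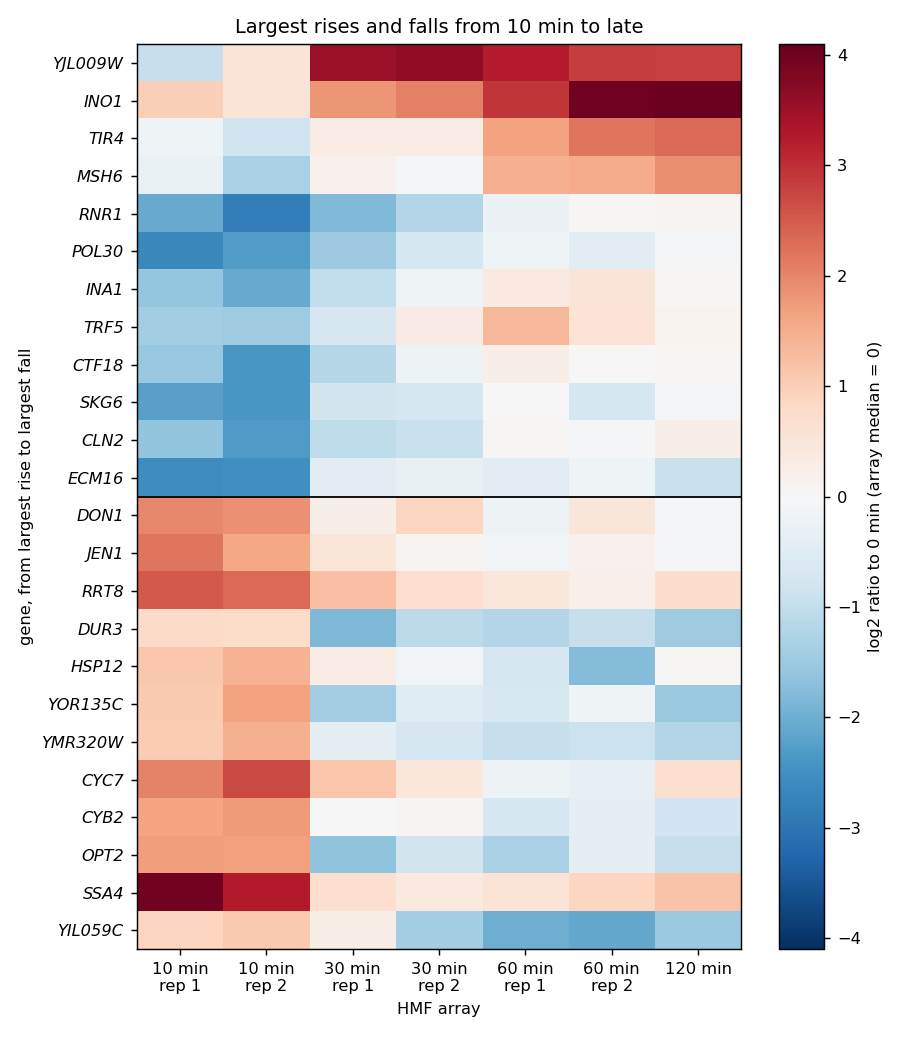
Log2 ratio to 0 min, with the median of each array set to 0, of the 12 called genes with the largest rise and the 12 with the largest fall from 10 min to late (rows) on the 7 HMF arrays (columns). Red is above and blue below the median gene. In each row above the line the 3 late arrays are higher than both 10 min arrays, and below the line they are lower.

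Genes for making ribosomes had more called members than any other list. Of 106 genes of ribosome biogenesis 24 were called higher late and none lower, against 1.75% of all genes called higher, and their median difference was 1.21 against 0.04 over all genes. On the arrays, 97 of the 106 had all late values above both 10 min values, against 21.2% of all genes. Unadjusted, at p of at most 0.05, 94 were higher, against 12.6% of all genes. The median of the list was -1.74 and -1.47 on the 10 min arrays, -0.42 and 0.10 after 30 min, -0.29 and -0.31 after 60 min and -0.58 after 120 min. The 10 min arrays stood apart from the other 5, and the list was back near the median gene at 30 min. At 10 min 89 of the 106 genes had a mean at least 2-fold below the median gene, against 1 after 30 min and 2 late. In the control the median of the list was -0.80 and -0.03 on the 10 min arrays and between -0.43 and -0.06 on the later ones, so that 1 control array at 10 min was also low.

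*ECM16*, an RNA helicase of the small subunit processome, was the largest rise of the list. It was at -2.57 and -2.51 after 10 min, -0.45 and -0.31 after 30 min, -0.43 and -0.19 after 60 min and -0.91 after 120 min. The late and the 10 min values did not overlap, and the difference was 2.03 ± 0.25 (SE, adjusted p = 0.024).

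*RIX1*, *NOG1* and *NOP4* act in the assembly of the large subunit. *NOG1*, a GTPase of pre-60S particles, was at -2.47 and -2.51 after 10 min, -0.95 and -0.47 after 30 min, -0.75 and -0.25 after 60 min and -1.07 after 120 min, a difference of 1.80 ± 0.30. *RIX1* rose by 1.81 ± 0.32 and *NOP4* by 1.77 ± 0.32, with adjusted p of 0.033 and 0.035 in limma. In both genes all later values were above both 10 min values.

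RNA polymerase I, which transcribes ribosomal RNA, followed the same course. Of 13 genes 2 were called higher, against 1.75% of all genes, and the median difference was 1.12. The subunit gene *RPA43* was at -2.35 and -1.84 after 10 min, -0.16 and 0.13 after 30 min, -0.33 and -0.50 after 60 min and -0.73 after 120 min, a rise of 1.58 ± 0.23 from 10 min to late. *RPA49*, another subunit, rose by 1.27 ± 0.19. In the control the median of the RNA polymerase I list was -0.76 and -0.01 on the 10 min arrays. Replicate 1 of the control was thus low here as well. Of 10 genes of RNA polymerase III, which makes transfer RNA and 5S RNA, none was called. Unadjusted, 5 were higher, against 12.6% of all genes, and the median difference was 0.67.

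The genes for the ribosomal proteins themselves had list medians below the median gene on all 7 arrays. Of 137 genes for cytosolic ribosomal proteins none was called, and 7 were higher without adjustment (p of at most 0.05), against 12.6% of all genes. The median difference was 0.17, which became -0.15 after quantile normalization. The median of the list was -1.07 and -0.93 after 10 min, -1.40 and -1.07 after 30 min, -0.82 and -0.99 after 60 min and -0.74 after 120 min. The highest HMF array was lower than the lowest control array, with the control between -0.42 and 0.02. At 30 min 107 of the 137 genes were at least 2-fold below the median gene, against 72 after 10 min and 36 late. From 10 to 30 min the list median of the differences was -0.20, while that of ribosome biogenesis was 1.44. The largest differences from 10 min to late in the list were 0.92 ± 0.30 in *RPS7B*, 0.85 ± 0.30 in *RPL22B* and 0.61 ± 0.23 in *RPL16A*, with adjusted p of 0.13, 0.15 and 0.19. Many of these genes are near-identical pairs, whose signals on oligonucleotide arrays may not be separate.

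**Figure D2:**
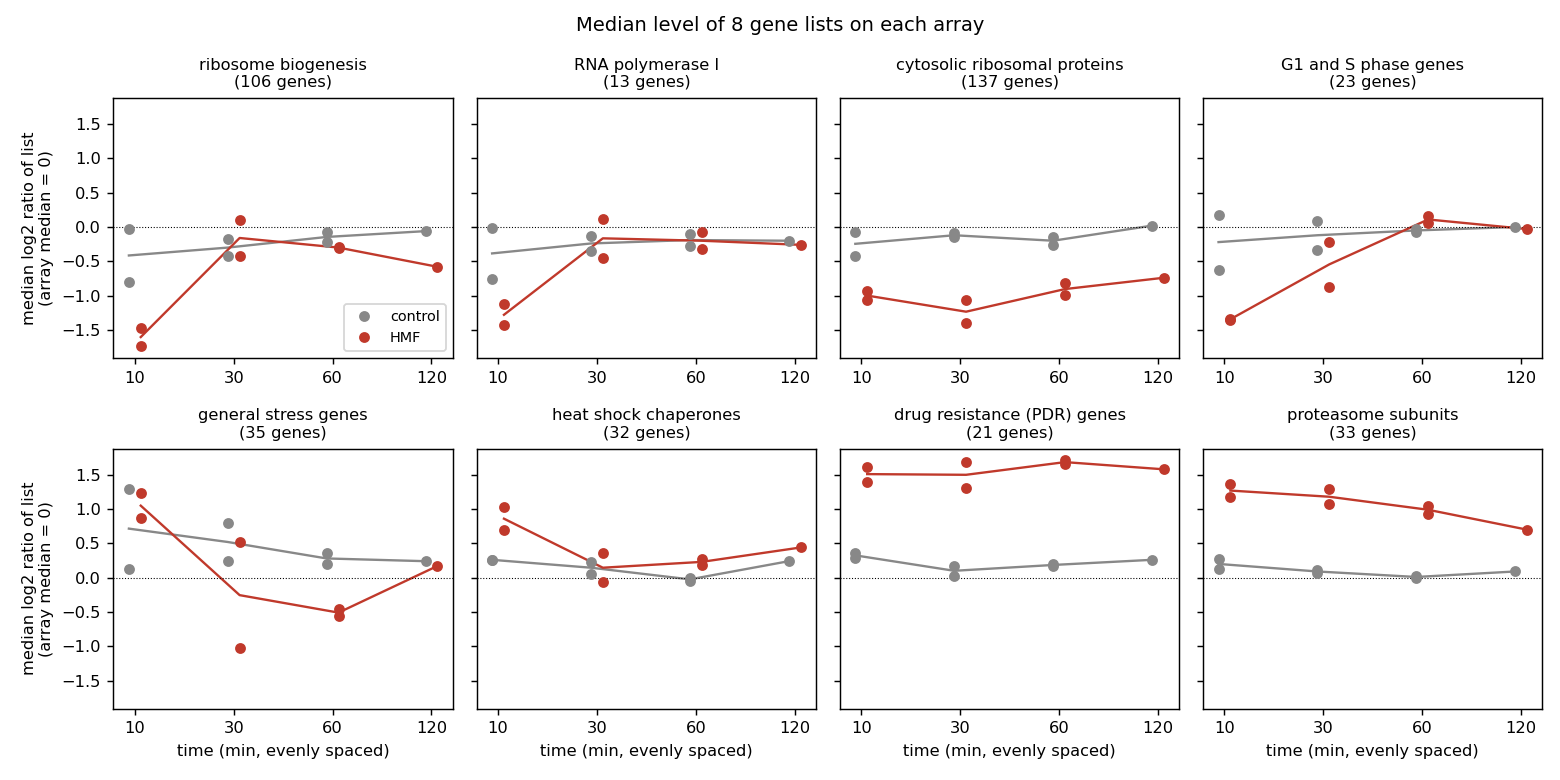
Median log2 ratio of 8 gene lists (array median set to 0) on each array with HMF (red) and of the control (gray), against time with evenly spaced steps; points are arrays and lines join the means of a time. Ribosome biogenesis, RNA polymerase I and the G1 and S phase genes are low with HMF at 10 min and near 0 late, general stress genes run the other way, and ribosomal proteins, drug resistance genes and proteasome subunits keep their side on all 7 arrays.

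Genes of the G1 and S phases, in which cells commit to division and copy their DNA, were higher after each step of the course by their median. Of 23 genes 8 were called higher late and none lower, against 1.75% of all genes called higher. Unadjusted, 18 were higher, against 12.6% of all genes, and the median difference was 1.53. The median of the list was -1.35 and -1.34 after 10 min, -0.87 and -0.22 after 30 min, 0.06 and 0.16 after 60 min and -0.03 after 120 min. The 30 min arrays thus lay between the 10 min and the late ones. The median difference was 0.85 from 10 to 30 min and 0.69 from 30 min to late, whereas that of ribosome biogenesis was 1.44 and then -0.25. Late means were above 30 min means in 21 of the 23 genes of this list and in 15 of the 106 of ribosome biogenesis. No test of the difference between these lists was made. In the control the median of the G1 and S phase list was -0.62 and 0.18 on the 10 min arrays, so that replicate 1 was also low.

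*CLN2*, a cyclin that drives entry into the cycle, was at -1.61 and -2.33 after 10 min, -1.05 and -0.91 after 30 min, 0.05 and -0.07 after 60 min and 0.24 after 120 min. The 3 times were ordered without overlap, and the difference from 10 min to late was 2.04 ± 0.26 (adjusted p = 0.024). *RNR1*, the large subunit of ribonucleotide reductase, was at -2.06 and -2.85, then -1.82 and -1.19, then -0.26 and 0.03, and 0.12 after 120 min. Its rise was 2.42 ± 0.39.

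*POL30*, which encodes the sliding clamp PCNA, rose by 2.23 ± 0.46 from values of -2.64 and -2.28 after 10 min to -0.19, -0.47 and -0.05 late. *MSH6*, a DNA mismatch repair gene, went past the median gene. It was at -0.28 and -1.34 after 10 min, 0.17 and -0.10 after 30 min, 1.46 and 1.52 after 60 min and 1.92 after 120 min, a rise of 2.44 ± 0.33. *CTF18*, which takes part in sister chromatid cohesion and clamp loading, was outside the list and rose by 2.09 ± 0.39. *PCL1*, a G1 cyclin of the kinase Pho85p, rose by 1.54 ± 0.26.

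Other lists of the cell cycle held no called gene. None of 15 genes of the G2 and M phases was called. Unadjusted, 3 were higher, against 12.6% of all genes, and their median difference was 0.37. None of 10 histone genes and none of 17 genes of daughter cells and M/G1 was called. The histone list stayed below the median gene on all 7 HMF arrays, from -0.17 after 120 min to -1.15 on an array of 30 min.

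Chaperone genes were lower late by their median, and few passed the test. Of 32 heat shock chaperone genes 2 were called lower late and none higher, against 0.47% of all genes called lower. Unadjusted, 10 were lower, against 7.91% of all genes, and the median difference was -0.40. *SSA4*, the stress-inducible form of the chaperone Hsp70, was at 3.95 and 3.25 after 10 min, 0.70 and 0.39 after 30 min, 0.55 and 0.89 after 60 min and 1.16 after 120 min. All 5 later arrays were far below both 10 min arrays, and the fall to late was -2.73 ± 0.34 (adjusted p = 0.024). It was still above the median gene on every late array.

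*HSP12*, a small membrane protein of stressed cells, was at 1.11 and 1.44 after 10 min, 0.31 and -0.10 after 30 min, -0.69 and -1.77 after 60 min and 0.04 after 120 min, a fall of -2.08 ± 0.36. *HSP26*, a small heat shock protein, had the same early peak and was not called. It was at 3.45 and 3.18 after 10 min, 1.12 and 0.58 after 30 min and 0.83 and 0.58 after 60 min, but at 2.76 on the single array of 120 min, so that the difference was -1.92 ± 0.46 with an adjusted p of 0.069. *KAR2*, the Hsp70 of the endoplasmic reticulum, fell by 1.51 ± 0.30, from 1.64 and 1.06 after 10 min to values between -0.33 and 0.02 late. It was the only called gene of 16 of endoplasmic reticulum folding, against 0.47% of all genes called lower.

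General stress genes and those of trehalose and glycogen were mostly lower late, yet no single gene passed the adjusted test. Of 35 general stress genes 23 were lower unadjusted, against 7.91% of all genes, and none was higher. In 28 all late arrays were below both 10 min arrays, against 16.8% of all genes, and the median difference was -1.26. Of 18 trehalose and glycogen genes, 11 of which are also in the general stress list, 11 were lower unadjusted and the median difference was -1.21. The medians of the general stress list were 1.23 and 0.87 after 10 min, 0.52 and -1.03 after 30 min, -0.56 and -0.46 after 60 min and 0.17 after 120 min. The replicates of 30 min stood far apart, and so did those of the control at 10 min, with 1.3 and 0.13. Replicate 1 of the control at 10 min was therefore as high as the HMF arrays, and it was also the control array that was low in ribosome biogenesis. The part of this array in the lists was not tested.

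Among these genes *SOL4*, a 6-phosphogluconolactonase homolog, was at 1.36 and 0.94 after 10 min, 0.28 and -2.15 after 30 min, -1.42 and -1.74 after 60 min and -0.45 after 120 min. The difference was -2.36 ± 0.72 with an adjusted p of 0.11. *PGM2*, a phosphoglucomutase, and *HXK1*, a hexokinase, differed by -2.28 ± 0.66 and -2.23 ± 0.70, with adjusted p of 0.10 and 0.12. The replicates of 30 min were far apart in *PGM2* as well, at 0.55 and -1.79. *CTT1*, the cytosolic catalase, differed by -2.03 ± 0.54 (adjusted p = 0.083).

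**Figure D3:**
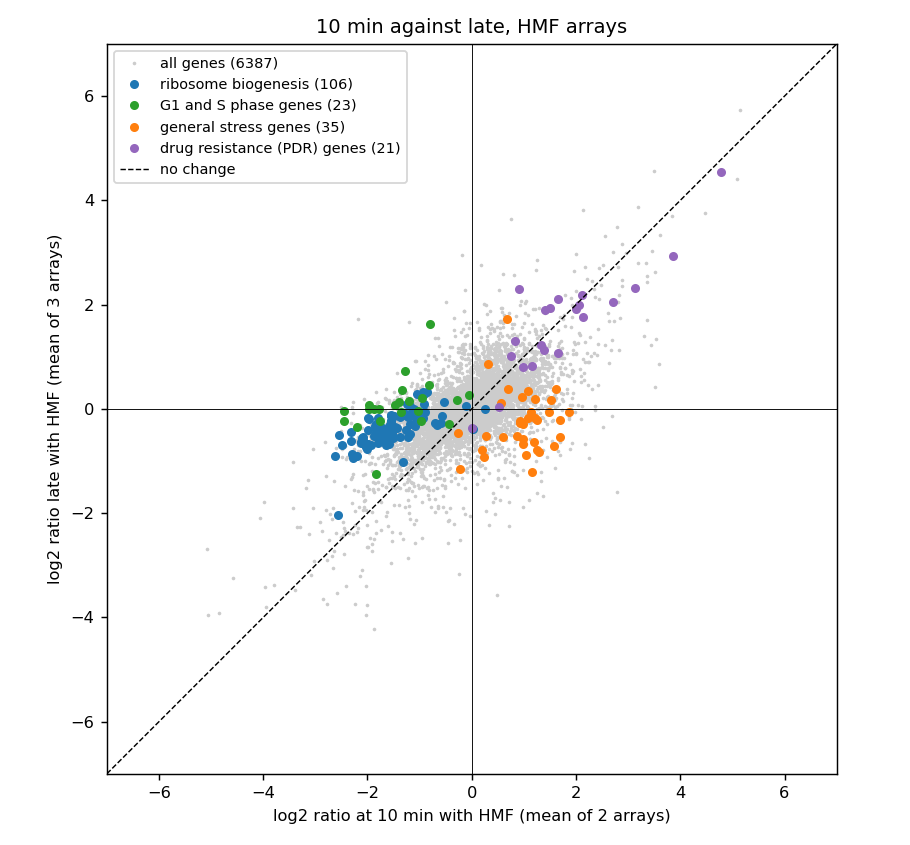
Mean log2 ratio of every gene at 10 min (2 arrays, horizontal) and late (3 arrays, vertical) with HMF, array median set to 0, with 4 gene lists in color and the line of no change dashed. All but 2 of 106 ribosome biogenesis genes and all G1 and S phase genes lie above the line, all but 2 of 35 general stress genes lie below it, and drug resistance genes lie on both sides of it, mostly at positive values.

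Other large falls are given by single gene. Of the 30 genes called lower late, 6 were in a list. *CYB2*, the cytochrome that oxidizes L-lactate in mitochondria, was at 1.63 and 1.75 after 10 min, -0.01 and 0.12 after 30 min, -0.70 and -0.40 after 60 min and -0.79 after 120 min. It fell by 2.32 ± 0.22, and the 3 times did not overlap. *JEN1*, the permease of lactate and pyruvate, fell by 1.90 ± 0.30 from 2.20 and 1.60 after 10 min to -0.12, 0.18 and -0.06 late. *DLD1*, the D-lactate dehydrogenase, was noticed after its values were seen and fell by 1.55 ± 0.29, from 0.42 and 0.23 to -1.23, -1.05 and -1.39.

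*CYC7*, the isoform of cytochrome c that is made when oxygen is short, fell by 2.31 ± 0.32. It was at 2.02 and 2.69 after 10 min and at -0.22, -0.32 and 0.68 late. It was the only called gene among 39 nuclear genes of the respiratory chain, against 0.47% of all genes called lower. Of the 39, 10 were lower unadjusted, against 7.91% of all genes, with a median difference of -0.41. In glycolysis no gene of 23 was called, 10 were lower unadjusted, against 7.91% of all genes, and the median difference was -0.51.

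*DUR3*, the transporter of urea, was at 0.78 and 0.75 after 10 min, -1.84 and -1.06 after 30 min, -1.21 and -0.95 after 60 min and -1.44 after 120 min. The fall of 1.97 ± 0.28 was complete at 30 min. *DUR12*, the enzyme that degrades urea, was chosen after its values were seen. It was at 1.36 and 1.13 after 10 min and at -1.13 and -0.81 after 30 min, and its fall to late was 1.64 ± 0.25. *OPT2*, a member of the oligopeptide transporter family, was at 1.71 and 1.69 after 10 min, -1.65 and -0.76 after 30 min and -1.34, -0.37 and -0.94 late, a fall of 2.58 ± 0.39. *ATG1*, the kinase that starts autophagy, fell by 1.21 ± 0.18. It was the only called gene of 17 autophagy genes, against 0.47% of all genes called lower. Of the 17, 6 were lower unadjusted, against 7.91% of all genes, and the median difference was -0.55.

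The remaining large falls were *DON1*, a gene of spore membrane formation, by 1.85 ± 0.36, *RRT8* by 1.95 ± 0.24, and the open reading frames *YIL059C*, *YMR320W* and *YOR135C*, with differences of -2.86 ± 0.55, -2.25 ± 0.33 and -2.15 ± 0.39. *CUZ1*, which encodes a partner of Cdc48p and the proteasome, fell by 0.99 ± 0.20 and was at 0.95, 0.77 and 0.66 late.

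**Figure D4:**
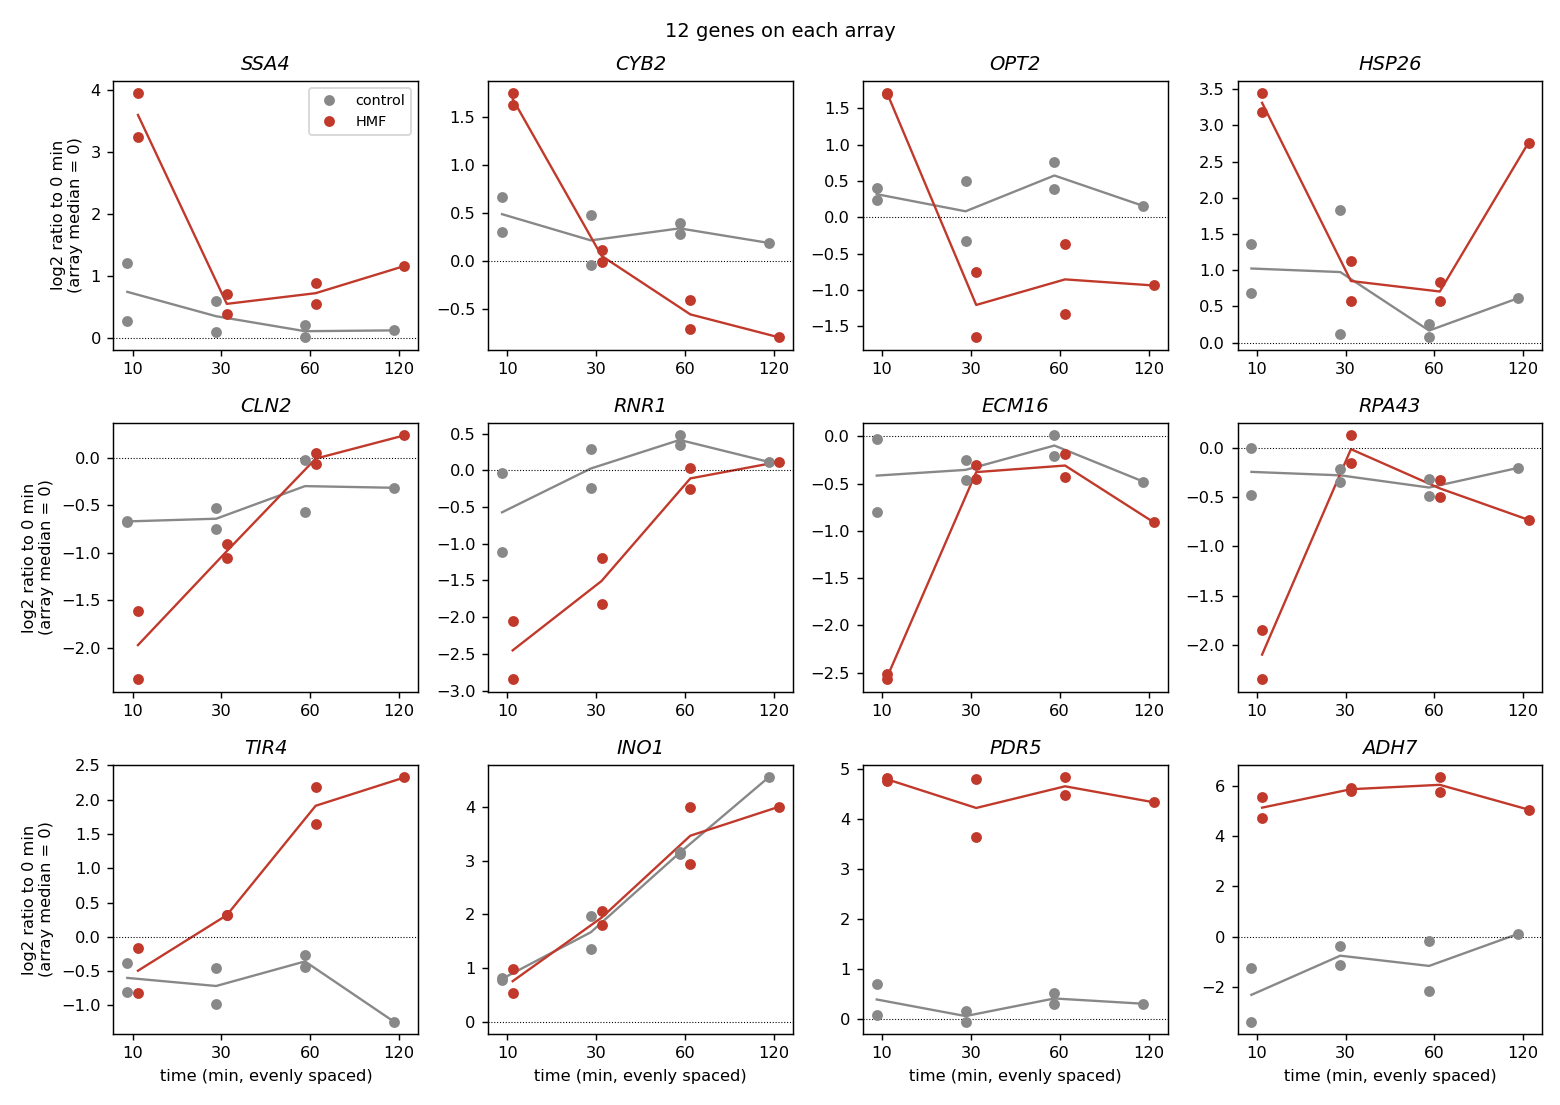
Log2 ratio to 0 min (array median set to 0) of 12 genes on each array with HMF (red) and of the control (gray), against time with evenly spaced steps; points are arrays and lines join the means of a time. *SSA4*, *CYB2* and *OPT2* drop by 30 min, *HSP26* is high again at 120 min, *CLN2* and *RNR1* climb through 60 min, *ECM16* and *RPA43* are back at 30 min, *INO1* is higher at later times in both cultures, and *PDR5* and *ADH7* stay high with HMF.

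A smaller set of genes stood above the median gene late. *TIR4*, a cell wall mannoprotein gene, was at -0.17 and -0.82 after 10 min, 0.32 and 0.32 after 30 min, 1.64 and 2.18 after 60 min and 2.33 after 120 min. It rose by 2.54 ± 0.29, while its control arrays lay between -1.24 and -0.27. *INO1*, which makes inositol phosphate for membrane lipids, was at 0.98 and 0.53, then 1.81 and 2.07, then 2.93 and 4.0, and 4.01 after 120 min, a rise of 2.90 ± 0.33. The control differed by 2.82 ± 0.33 between the same times, and the difference between the cultures was 0.07 ± 0.47, well inside its error.

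*YLL056C* was the only called gene of 21 PDR genes, against 1.75% of all genes called higher. It was at 0.89 and 0.93 after 10 min and 0.97 and 0.98 after 30 min, then at 2.16 and 2.36 after 60 min and 2.38 after 120 min. Its rise of 1.39 ± 0.19 came after 30 min, and in the control the difference was -0.15 ± 0.19. *YDR541C*, listed with the reductases, rose by 1.52 ± 0.21 to 1.55, 1.29 and 1.34 late. *MCH5*, a riboflavin transporter gene chosen after its values were seen, was already at 0.91 and 1.56 after 10 min and rose by 1.42 ± 0.29 to 2.36, 2.99 and 2.62.

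Some membrane lipid and lysine genes were also higher late. *OLE1*, the fatty acid desaturase, was at -1.69 and -2.17 after 10 min, -1.45 and -1.21 after 30 min, -0.48 and -0.35 after 60 min and -0.60 after 120 min, a rise of 1.45 ± 0.21. *FAA4*, an acyl-CoA synthetase, rose by 1.27 ± 0.26. These were the 2 called of 10 genes of fatty acid synthesis, against 1.75% of all genes called higher. Of 9 lysine genes, *LYS4*, the homoaconitase, rose by 1.25 ± 0.19 and *LYS9*, the saccharopine dehydrogenase, by 1.09 ± 0.18, with a list median of 0.62. *GCD10*, a subunit of a transfer RNA methyltransferase, and *RKI1* of the pentose phosphate pathway rose by 1.51 ± 0.27 and 1.55 ± 0.32.

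The largest rises also held *TRF5*, a poly(A) polymerase of nuclear RNA surveillance, with 2.14 ± 0.33, *INA1* with 2.16 ± 0.27 and *SKG6* with 2.05 ± 0.38. The largest rise among called genes was in *YJL009W*, an open reading frame that the reference table does not hold. It was at -0.94 and 0.55 after 10 min, 3.54 and 3.65 after 30 min, 3.22 and 2.83 after 60 min and 2.80 after 120 min, a rise of 3.14 ± 0.56. In its control arrays the difference was 0.81 ± 0.56.

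The genes best known for dealing with aldehydes and drugs kept about the same level on all arrays as a group. Of 21 PDR genes 20 were not called, and the median of the list was 1.62 and 1.40 after 10 min, 1.31 and 1.69 after 30 min, 1.71 and 1.66 after 60 min and 1.58 after 120 min. The control arrays lay between 0.03 and 0.36. Many genes of this list were named by the study as induced in the same samples, so that its high level is no independent evidence. The list median of the differences was -0.18, and 0.13 without replicate 1 of HMF at 10 min. *PDR5*, the main multidrug pump, was at 4.81 and 4.76 after 10 min, 3.64 and 4.79 after 30 min, 4.47 and 4.82 after 60 min and 4.33 after 120 min, and the difference of -0.24 ± 0.34 was within the spread.

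*ADH7*, an alcohol dehydrogenase that uses NADPH, was at 4.73 and 5.56 after 10 min, 5.94 and 5.82 after 30 min, 5.76 and 6.35 after 60 min and 5.06 after 120 min. The ranges overlapped, with a difference of 0.58 ± 0.72. *ARI1*, an aldehyde reductase gene, was at 3.72 and 3.28 after 10 min and between 4.26 and 4.66 on the 5 later arrays. These did not overlap, but the difference of 1.06 ± 0.26 had an adjusted p of 0.069. *GRE2*, a methylglyoxal reductase gene, differed by 0.29 ± 0.26, and *RSB1*, a sphingoid base exporter gene, by -0.93 ± 0.47, from 4.18 and 3.53 after 10 min to 2.35, 3.56 and 2.87 late. In the control *RSB1* also differed by -0.93 ± 0.47 between the same times.

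*OYE3*, an NADPH oxidoreductase gene, was at 2.58 and 2.29 after 10 min, 1.82 and 2.41 after 60 min and 3.90 after 120 min. *PUT1*, the proline oxidase gene, was at 2.29 and 1.99 after 10 min, 3.08 and 3.20 after 60 min and 5.19 after 120 min, a difference of 1.68 ± 0.72 with an adjusted p of 0.23. In both genes the highest value came from the array without a replicate. *CHA1*, the serine and threonine deaminase, was at 3.51 and 3.70 after 10 min, 3.50 and 3.87 after 60 min and 2.63 after 120 min, a difference of -0.27 ± 0.22. The study named these strongly induced genes from the same samples, so that their level is no independent evidence.

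Proteasome subunits were above the median gene by their list median on all 7 arrays, at a lower level late. Of the 33 genes 24 were at least 2-fold above it on both 10 min arrays and 2 on all 3 late arrays. Over all 6387 genes these counts were 336 and 137. The first count asks for 2 arrays and the second for 3, and the list medians lay near the 2-fold limit. Of the 33 differences 31 were negative. None was called, 8 were lower unadjusted, against 7.91% of all genes, and none was higher. In 17 all late arrays were below both 10 min arrays, against 16.8% of all genes. The list median was 1.17 and 1.37 after 10 min, 1.07 and 1.29 after 30 min, 0.93 and 1.05 after 60 min and 0.70 after 120 min, while the control was between 0.00 and 0.27. The largest differences were -0.70 ± 0.20 in *PRE7*, -0.69 ± 0.20 in *PRE2* and -0.64 ± 0.19 in *RPN6*, with adjusted p of 0.10, 0.10 and 0.11. *RPN4*, the transcription factor of proteasome genes, was at 0.70 and 0.94 after 10 min and at 1.35, 1.06 and 1.47 late, a difference of 0.47 ± 0.36.

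Of 12 transcription factor genes named by the study none was called. *YAP1*, a factor of oxidative stress, was at 1.63 and 1.60 after 10 min and 0.63, 1.40 and 0.89 late, and its difference of -0.64 ± 0.28 had an adjusted p of 0.24. *PDR1* and *PDR3*, which control the drug pumps, differed by -0.18 ± 0.28 and -0.26 ± 0.34. *HSF1*, the heat shock factor, was at 1.54 and 0.25 after 10 min and differed by -0.72 ± 0.51.

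Genes of arginine and histidine synthesis had low list medians throughout. The arginine list of 10 genes had medians of -1.65 and -1.53 after 10 min, -1.39 and -1.38 after 30 min, -1.51 and -1.24 after 60 min and -1.31 after 120 min, while the control was between 0.06 and 0.59. None was called, and the median difference of 0.24 became -0.18 after quantile normalization. *ARG3*, ornithine carbamoyltransferase, was at -3.67 and -2.94 after 10 min and -2.85, -2.31 and -1.64 late, a difference of 1.04 ± 0.32 (adjusted p = 0.12), and the control differed by 1.06 ± 0.32. The histidine list of 7 genes lay between -1.30 and -0.71 on all 7 arrays, and none of its genes was called.

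In all, 336 genes were at least 2-fold above the median gene on both 10 min arrays. Of these 64 (19.0%) were so on all 3 late arrays, and 148 (44.0%) were under 2-fold on all 3. Of 508 genes at least 2-fold below on both 10 min arrays, 70 (13.8%) were so on all late arrays and 291 (57.3%) were within 2-fold on all of them. By 30 min 127 of the 336 and 270 of the 508 were already within 2-fold on both arrays. A gene chosen for extreme values on 2 arrays tends to be less extreme on others, also in the control. There, 8 of 65 genes high at 10 min and 17 of 154 low ones were within 2-fold on all 3 late arrays. All these shares are descriptions without a test. On all 7 HMF arrays 49 genes were at least 2-fold above the median gene and 52 were at least 2-fold below. Of the 49, 11 were also 2-fold above on all 7 control arrays, or 61.1% of the 18 that were so in the control. Of the 52, 12 were also 2-fold below on all control arrays, or 28.6% of the 42. Arrays of both cultures had 0 min RNA as the reference, and whether it was a single pool is not given in the sources used here.

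The course was also tested in its 2 steps. Between 10 and 30 min 20 genes were called (0.313%), 14 higher (0.219%) and 6 lower (0.0939%). The 14 were led by genes of ribosome assembly and RNA polymerase I: 8 of the 106 genes of ribosome biogenesis were among the 20. *MAK5*, an RNA helicase of the large subunit, was chosen after its values were seen and went from -1.88 and -1.85 to -0.21 and -0.04, a rise of 1.74. *RPA43* rose by 2.08 in this step and *ECM16* by 2.16. The 6 lower genes were *SSA4*, *DUR12*, *DUR3*, *CYB2*, *OPT2* and *MLO1*, with differences of -2.91 in *OPT2* and -3.05 in *SSA4*. None of the 20 was called when any of the 6 replicated HMF arrays was left out or the HMF arrays were fitted alone, and all 20 had the same sign in the latter fit.

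From 30 min to late no gene was called by limma (smallest adjusted p 0.28), and 399 (6.25%) passed 0.05 without adjustment. Leaving out replicate 2 of HMF at 30 min gave 1 gene. By the means of the 112 genes called higher late, the median share of the change made by 30 min was 90.5%, and 92 had made most of it by then. In the 30 genes called lower the share was 73.8%, and 27 had made most of it. Both shares rest on genes chosen by the change itself and use the same 10 min arrays, so that they are a description of these genes only. By their medians the lists differed here. The second step had medians of 0.69 in the G1 and S phase list, 0.62 in fatty acid synthesis and 0.50 in branched-chain amino acid synthesis. It had 0.38 in ribosomal proteins and -0.25 in ribosome biogenesis, against 0.04 over all genes. The replicates of 30 min lay apart, at -0.87 and -0.22 in the G1 and S phase list. In fatty acid synthesis they were at -0.54 and -0.0, against 0.01, 0.51 and 0.05 late. In branched-chain amino acid synthesis they were at -0.71 and -1.19, against -0.69, -0.34 and -0.64 late. The second step of these lists was not tested.

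**Figure D5:**
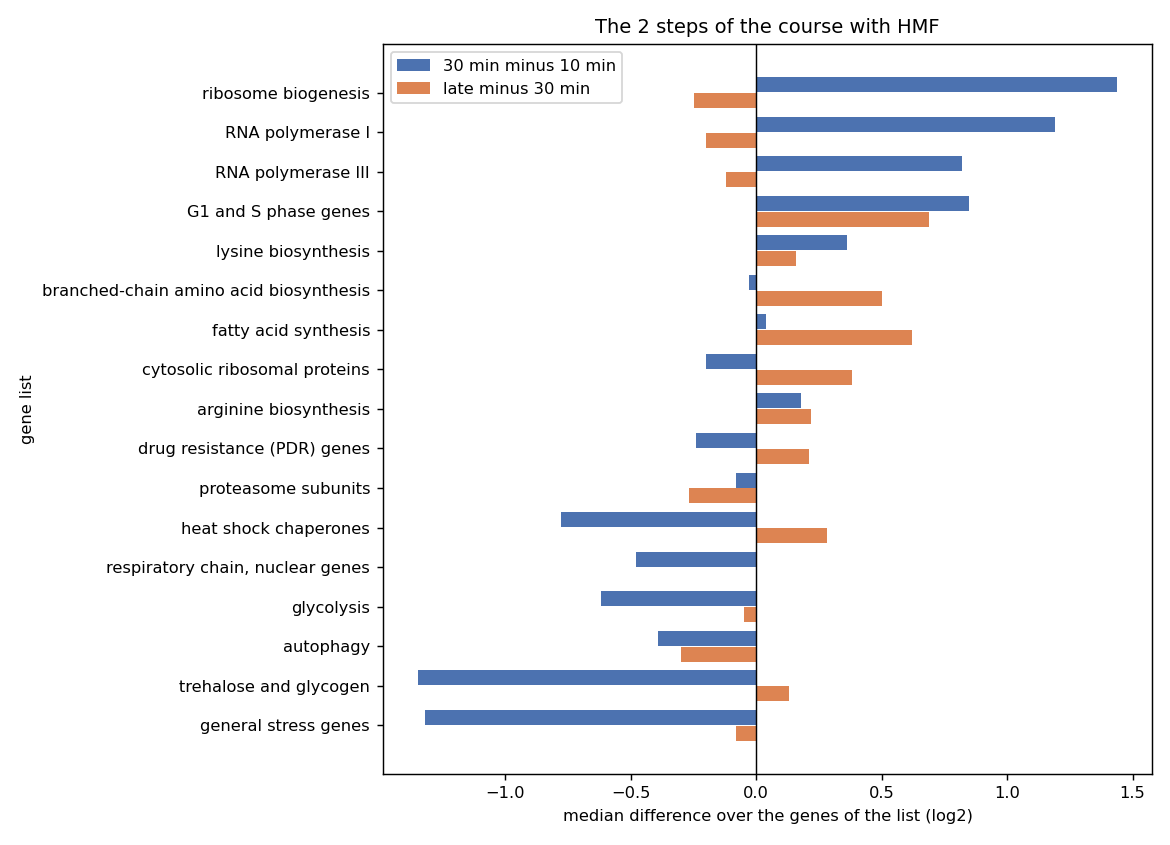
Median difference in log2 over the genes of 17 lists from 10 to 30 min (blue) and from 30 min to late (orange) in the HMF culture, array medians set to 0. Ribosome biogenesis changes by 1.44 in the first step and by -0.25 in the second, whereas the G1 and S phase list adds 0.85 and then 0.69.

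The control culture served to show how much the same interval changed a culture without HMF. From 10 min to late no gene was called in the control by limma (smallest adjusted p 0.13), and 226 (3.54%) passed 0.05 without adjustment, against 1309 (20.5%) with HMF. The genes called with HMF had a median control difference of 0.29 (112 higher) and -0.33 (30 lower), of the same sign as with HMF. The difference between the 2 courses was tested directly, and no gene was called (smallest adjusted p 0.28), with 439 (6.87%) at an unadjusted p of at most 0.05. Without replicate 2 of the control at 10 min 4 genes were called. Individual courses are therefore not shown to differ between the cultures after adjustment.

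Since this test uses the same HMF arrays as the comparison that chose the genes, the values are given only side by side. *CYB2* differed by -2.32 with HMF and by -0.20 in the control, *TIR4* by 2.54 and -0.05, *OPT2* by -2.58 and 0.12, *JEN1* by -1.90 and 0.48, and *ECM16* by 2.03 and 0.19. *HSP104*, a disaggregase gene, had -1.47 ± 0.56 with HMF and -1.23 ± 0.56 in the control. For general stress genes the list medians were -1.26 with HMF and -0.48 in the control, and for the G1 and S phase list they were 1.53 and 0.28.

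The groups that the study described as recovering or transient were examined last. It chose both on these samples, so that their counts are no independent evidence. Of the 9 genes named as recovering, 4 were called higher late, against 1.75% of all genes. Of these 4, *NOP56* of the box C/D small nucleolar particles rose by 1.41 ± 0.26 and *RRP5* of ribosomal RNA processing by 1.36 ± 0.23. *CBF5*, a pseudouridine synthase, rose by 1.35 ± 0.26, and *PUS1*, which modifies transfer RNA, by 1.13 ± 0.21. Of the 9, *BI2*, *BI3* and *YKU80* had values of -0.57 ± 0.44, -0.16 ± 0.45 and -0.04 ± 0.45. The study names *MAL1* as transiently induced as well, which was matched to no open reading frame here. None of the other 4 genes so named was called, and their median difference was -0.68. *MPH3*, a maltose permease gene, was at -0.11 and 0.38 after 10 min and -1.24, -1.18 and -0.65 late, a difference of -1.16 ± 0.25 (adjusted p = 0.053).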

How the data were processed

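Per the study's methods, the authors scanned the oligonucleotide arrays, took median spot signals less background, and normalized each slide to a spike-in control gene. The deposited values are log2 ratios of the Cy3 sample over the Cy5 0 min reference, not centred; how duplicate spots were combined is not given in the sources used here. The number of arrays limits the precision, and signal intensities were not used here.

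Each array was centred on its median over all 6387 open reading frames. A mean for each of the 8 groups was fitted to all 14 arrays with limma 3.58.1 in R 4.3.3 (lmFit, eBayes), with 6 residual and 2.53 prior degrees of freedom and a typical replicate SD of 0.335. Late is the mean of 3 arrays with equal weight, and the 120 min array was taken to vary like the other groups. Adjustment of p was by Benjamini-Hochberg over all genes. Errors are moderated standard errors. The fit was tested on simulated data first.

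Symbols came from a RefSeq gene table of assembly R64, which held 5847 of the open reading frames; the other 540 keep their systematic names. Gene lists are described by counts and medians, with no set test. The members and the 50 lists were chosen with earlier results of these data known. The text names the 12 largest rises and 12 largest falls among called genes whose arrays did not overlap, the called members of each list with the largest differences (up to 4, or up to 3 as values where none was called), and genes named by the study. Other genes are marked as chosen after their values were seen or appear with the list or step they belong to. Alternatives were the deposited scale, quantile normalization, the HMF arrays alone, no 120 min arrays, equal weight of 60 and 120 min, other forms of moderation, a replicate block, a fold limit and each replicated array left out. Leaving out control arrays was chosen after seeing the data.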

Additional observations from a re-analysis of the deposited data

How the results depend on the processing

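Against 142 genes called from 10 min to late, the deposited scale gave 3, quantile normalization 0, the HMF arrays alone 0 and the data without the 120 min arrays 79; leaving out an HMF array gave 0 to 103, and a control array, chosen after seeing the data, 0 to 212. Counts of 97 to 137 came from equal weights, other moderation and the fold limit. From 10 to 30 min, against 20, the count was 5 as deposited and 0 after quantile normalization, with the HMF arrays alone, with the ordinary fit and without any single HMF array. From 30 min to late, against 0, it was 3 as deposited and 0 to 1 with an array left out, and for the difference between the courses, against 0, 4 as deposited and 0 to 4. Of 45 named genes called, 2 were as deposited, 0 after quantile normalization, 0 with the HMF arrays alone and 0 to 34 with an HMF array left out. The cause was not tested. The deposited scale moved the median difference of all genes from 0.04 to 0.20.

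No called gene reversed its direction in the comparison of 10 min with late. A list median counted as reversed where it exceeded its replicate spread in size and changed sign. A change of sign in a smaller median was not counted. Reversed were arginine biosynthesis (-0.18) and cytosolic ribosomal proteins (-0.15), both after quantile normalization, and PDR genes. The PDR median lay between -0.27 and 0.13 with an HMF array left out, the latter without replicate 1 of 10 min. Counted over every list and alternative, 591 other medians moved by less than the replicate spread and 56 by more.

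The labels give groups the same replicate numbers without stating a pairing. Deviations of same-numbered arrays correlated positively in all 15 pairs of groups, between 0.016 and 0.364, and not all were above 0.1. The numbers were not taken as pairs in the main fit, and whether same-numbered arrays share an effect was not tested. With a replicate block 524 genes were called from 10 min to late, 169 from 10 to 30 min, and 70 of the named genes.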

Other observations

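Among genes under 2-fold on both 10 min HMF arrays, 44 were at least 2-fold above the median gene on all 3 late arrays. Of these 15 (34.1%) have systematic names that end in a hyphen and a letter, against 288 of all 6387 open reading frames (4.51%). These 15 were chosen by their values and get no test. Their median was 0.30 after 10 min, 1.20 after 60 min and 1.42 after 120 min, and their differences from 10 min to late lay between 0.46 and 1.35, with a control median of 0.41. The arrays may not separate such open reading frames where their sequences are near-identical.

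The 4 retrotransposon genes that the study lists among those induced by HMF have names of this form. Their median was 0.82 and 0.52 after 10 min, 0.73 and 0.78 after 30 min, 0.97 and 1.06 after 60 min and 1.89 after 120 min, while the control was between -0.31 and 0.03 up to 60 min and at 0.50 after 120 min. None was called, and all 4 were higher at an unadjusted p of at most 0.05, against 12.6% of all genes. The study chose these 4 on the same samples, so that their rise is no independent evidence. *YBL100W-A* was at 0.62 and 0.08 after 10 min, 1.21 and 0.97 after 60 min and 2.44 after 120 min, a difference of 1.18 ± 0.28 (adjusted p = 0.06).

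*MLS1*, the malate synthase of the glyoxylate cycle, lay between -2.76 and -1.24 on the 6 HMF arrays up to 60 min and at 0.99 on the single array of 120 min, which has no replicate. Its difference of 1.55 ± 0.56 had an adjusted p of 0.17.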
